A study of Homo sapiens with 6 samples.

Results

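The 39 protein-coding HOX genes of the human genome were followed in A375 cells, an established human melanoma line with an activating BRAF mutation, with and without an intact DUS1L gene. They were picked out by symbol (HOX followed by the cluster letter A, B, C or D and a number) among the 63086 genes of the deposited count table. The symbol rule itself uses no measured value, but the family was chosen with earlier results of these data known. The HOXA cluster on chromosome 7 holds 11 of them, the HOXB cluster on chromosome 17 holds 10, the HOXC cluster on chromosome 12 holds 9 and the HOXD cluster on chromosome 2 holds 9. Wild-type A375 cells gave 3 libraries and DUS1L knockout A375 cells gave 3, described by the submitters as biological replicates. DUS1L encodes an enzyme that makes dihydrouridine in tRNA. Knockout cells were edited with CRISPR/Cas9 and taken through clonal selection, whereas wild-type cells were grown in parallel without targeting, so the knockout and the passage through a clone cannot be told apart. The number of clones is not given in the sources used here, so p-values reflect how far these libraries vary among themselves. In bulk RNA, fewer cells that express a gene and less RNA per cell cannot be told apart.

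HOX genes encode homeodomain transcription factors that give cells of the embryo their position along the head-to-tail axis and along the limbs. Each cluster is read in order: genes at the end with low numbers act in the head and neck, and genes at the end with high numbers act in the trunk, tail and limb tips. Genes with the same number in different clusters descend from one ancestor and are called a paralog group. Adult cells, including skin cells of different body sites, often keep a set of active HOX genes, which is called their HOX code. HOX proteins bind DNA together with partners of the PBX, MEIS and PKNOX families, and Polycomb and Trithorax proteins keep the clusters silent or active.

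The part of a HOX protein that touches DNA is alike across the family, in genes that changed in knockout cells and in genes that were not called. Its coding bases are shown for HOXA4, HOXB2, HOXB9 and HOXC11, which are 4 of the changed genes, to let them be compared. The stretch below codes for most of the third homeodomain helix, the part that enters the DNA groove. It is 39 bases long, reads 5′ to 3′ on the coding strand, was copied from GENCODE release 44 transcripts (GRCh38), and lies in exon 2 of 2 in each transcript shown. Capitals mark bases that differ from HOXA4.
HOXA4 (chr7:27129372-27129410, minus strand): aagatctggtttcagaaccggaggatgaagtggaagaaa
HOXB2 (chr17:48543539-48543577, minus strand): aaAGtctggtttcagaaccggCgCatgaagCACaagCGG
HOXB9 (chr17:48622927-48622965, minus strand): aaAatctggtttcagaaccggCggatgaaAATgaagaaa
HOXC11 (chr12:53975327-53975365, plus strand): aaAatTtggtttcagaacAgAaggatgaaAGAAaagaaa
Against HOXA4, HOXB9 differs at 5 bases with 1 residue changed, HOXC11 at 8 bases with 1 residue changed, and HOXB2 at 10 bases with 3 residues changed. This likeness is local. Over the canonical transcripts of all 741 pairs of HOX genes, the longest exact run that 2 genes share is 62 bases (HOXB3 and HOXD3), the median is 15 bases, and for pairs with a gene that changed the longest is 50 bases (HOXB4 and HOXB5).

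The targeted gene and the cell type were checked first, in CPM, the count scaled to the normalised library size. DUS1L measured 79.95, 75.7 and 77.0 CPM without and 55.4, 54.7 and 53.1 CPM with the knockout (log2 fold change -0.51 ± 0.06 SE; edgeR adjusted p = 1.7e-06). Most DUS1L RNA thus remained, at 0.702 of the wild-type level, and RNA level alone does not show loss of the protein. The library totals ran from 17121315 to 18861514 estimated counts, at which 3 counts correspond to 0.16 to 0.18 CPM. Wild-type replicate 1 stood apart from the other libraries on the second principal component (22.4 against -13.1 to 9.7, 11.9% of the variance), so results that rest on it are also given without it. Of the melanocyte and neural crest markers, SOX10 was high (604 ± 17 and 481 ± 34 CPM in wild-type and knockout, SD, n = 3 each) and MITF was near 20 CPM in both genotypes, whereas the pigment genes PMEL, MLANA and DCT were under 0.5 CPM and TYR was at 0 counts in all libraries. Of the 13 such markers, 9 were tested, of which 1 was higher, 4 were lower and 4 were not called. Of 5 markers of undifferentiated melanoma, all tested, 4 were higher. Of all genes tested, 20.5% were higher and 20.7% lower. Markers of other cell types were low or varied within genotypes. The 5 endothelial markers summed to 2.82 to 3.84 CPM in wild-type against 2.07 to 3.99 CPM in knockout, the 6 leukocyte markers to 22.6 to 23.3 and 20.7 to 29.9 CPM (mostly CD68, with CD3E at 0 counts), and the 6 keratinocyte markers to 53.2 to 58.9 and 50.1 to 59.3 CPM (mostly KRT10, with KRT5 and KRT1 at 0 counts). The 7 fibroblast markers, a cell type that also expresses HOX genes, summed to 44.3 to 109.5 CPM in wild-type against 87.1 to 186.1 CPM in knockout. PDGFRB among them was lower in knockout and the other 6 were not called. The part of these markers in the HOX values was not tested.

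The wild-type cells expressed a broad HOX code that spanned all clusters and nearly all positions. With 3 or more counts in each wild-type library, 37 of 39 genes were detected, 32 had a mean of 1 CPM or more, and 15 had a mean of 10 CPM or more. The 39 genes together made up 422 ± 5 CPM in wild-type cells. Of this, the HOXB cluster held 39.7% ± 0.8, HOXC 35.5% ± 1.1, HOXA 16.4% ± 0.2 and HOXD 8.37% ± 0.58 (SD, n = 3). These shares, and the CPM cut-offs used here, are not corrected for transcript length. All 9 HOXC genes and 9 of 10 HOXB genes reached 1 CPM, against 9 of 11 HOXA genes and 5 of 9 HOXD genes. The plot of levels shows the HOXB and HOXC clusters active along their length, with HOXB1 as the gap at the head end of HOXB, while HOXA dips over HOXA6, HOXA7 and HOXA9 and is low again at HOXA11 and HOXA13 (0.470 and 0.732 CPM per kilobase), and HOXD is low from HOXD1 to HOXD4 and at HOXD11 and HOXD12.

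**Figure D1:**
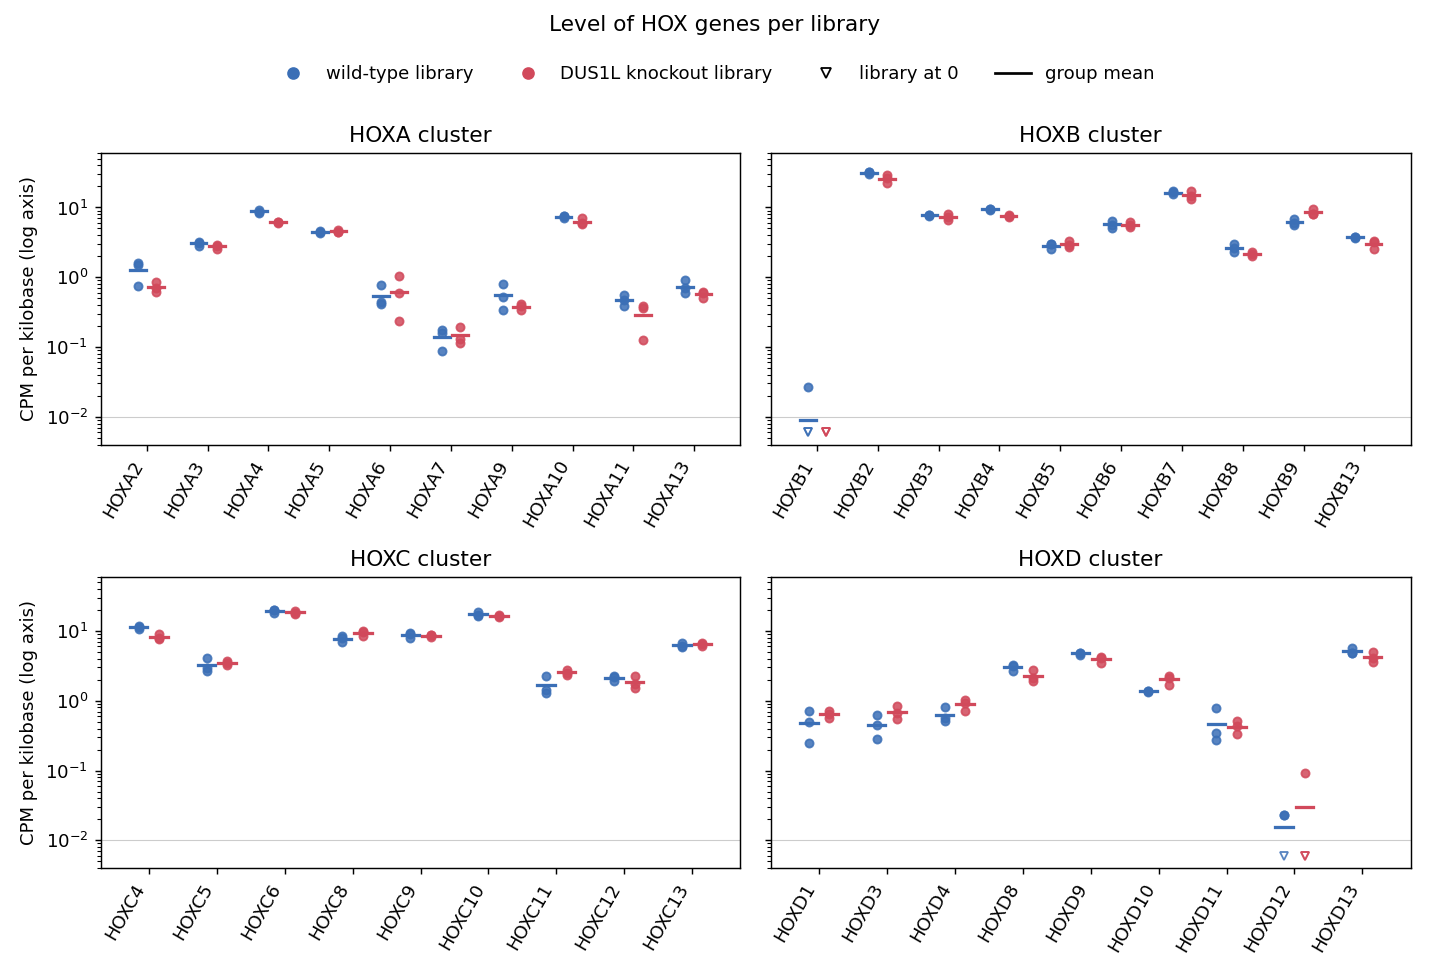
Level of the HOX genes shown in CPM per kilobase of the canonical transcript (log axis), by cluster and ordered by paralog number, with 1 point per library (wild-type blue, knockout red) and a bar at the group mean; open triangles at the bottom of the axis stand for libraries at 0. HOXB2 is highest at 31.6 CPM per kilobase in wild-type, and HOXB1 and HOXD12 lie at or near 0 in all libraries.

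Levels can be compared between genes only per transcript length. On the scale of CPM per kilobase of the canonical transcript, HOXB2, which patterns the hindbrain, was highest in wild-type cells at 31.6 ± 1.2. HOXC6 (19.5 ± 1.0), HOXC10 (17.4 ± 1.2) and HOXB7 (16.4 ± 0.7) followed. HOXB2 did not overlap with HOXC6 in any wild-type library, whereas HOXC6 and HOXC10, and HOXC10 and HOXB7, did overlap. HOXC4 at 11.3 ± 0.5 CPM per kilobase lay below HOXB7 and above HOXB4 (9.41 ± 0.22) without overlap. HOXB4, HOXC9 (8.77 ± 0.65) and HOXA4 (8.76 ± 0.42) could not be ordered beyond their spread, nor could HOXC8 (7.72 ± 0.76), HOXB3 (7.67 ± 0.24) and HOXA10 (7.39 ± 0.22). The order depends on the length used. With the union of a gene's exons in place of the canonical transcript, HOXB2 stayed first at 21.6 CPM per kilobase, but HOXC6 moved from rank 2 to rank 5 (9.29) and HOXB3 from rank 10 to rank 19 (3.41), whose exon unions are longer than their canonical transcripts (3458 against 1651 and 7425 against 3301 bases). HOXC4 moved from rank 5 to rank 9 and then lay below HOXB4 (7.00 ± 0.28 against 9.41 ± 0.22), so their order reversed.

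At the low end, 3 genes had too few counts to be tested. HOXB1, which acts in the hindbrain, had 1 count in wild-type replicate 2 and none elsewhere. HOXD12 had at most 4 counts in a library (knockout replicate 2) and was at 0 in 3 of 6 libraries, and HOXA7 had 3 to 7 counts. HOXA7 shares 74.8% of its canonical transcript with exons of the antisense gene HOXA-AS3, and the strand setting of the counting is not given, so its few counts cannot be assigned to a strand.

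In DUS1L knockout cells 7 HOX genes changed, each by a small fold, and 29 did not pass the test. HOXA4, HOXB4, HOXC4 and HOXB2 were lower, and HOXB9, HOXC8 and HOXC11 were higher. The changes ran from 1.43-fold lower (HOXA4) to 1.53-fold higher (HOXC11). Of the 36 HOX genes tested, 7 (19.4%) were called at an adjusted p under 0.05 over all 16046 genes tested (edgeR quasi-likelihood test), against 41.2% of all genes. Higher calls made up 8.3% of the HOX genes and 20.5% of all genes, and lower calls 11.1% and 20.7%. The HOX share lies below that of all genes, and also below the 34.6% called among the 10915 tested genes within the HOX range of 0.572 to 48.4 CPM; the difference itself was not tested. The median log2 fold change of the 36 genes was -0.10 (range -0.82 to 0.61), with 23 below 0 and 13 above, beside a median of -0.004 over all genes. The median absolute log2 fold change was 0.277 for HOX genes and 0.259 for all genes. None of the 36 passed the edgeR test against 1.5-fold (glmTreat), which called 3.58% of all genes (2.31% higher and 1.27% lower), and DESeq2 and limma-voom called none against 1.5-fold either; 12 had an unadjusted p under 0.05 in the test against no change. The libraries of the genotypes did not overlap for 12 of the 36 genes (33.3%), against 51.1% of all genes.

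**Figure D2:**
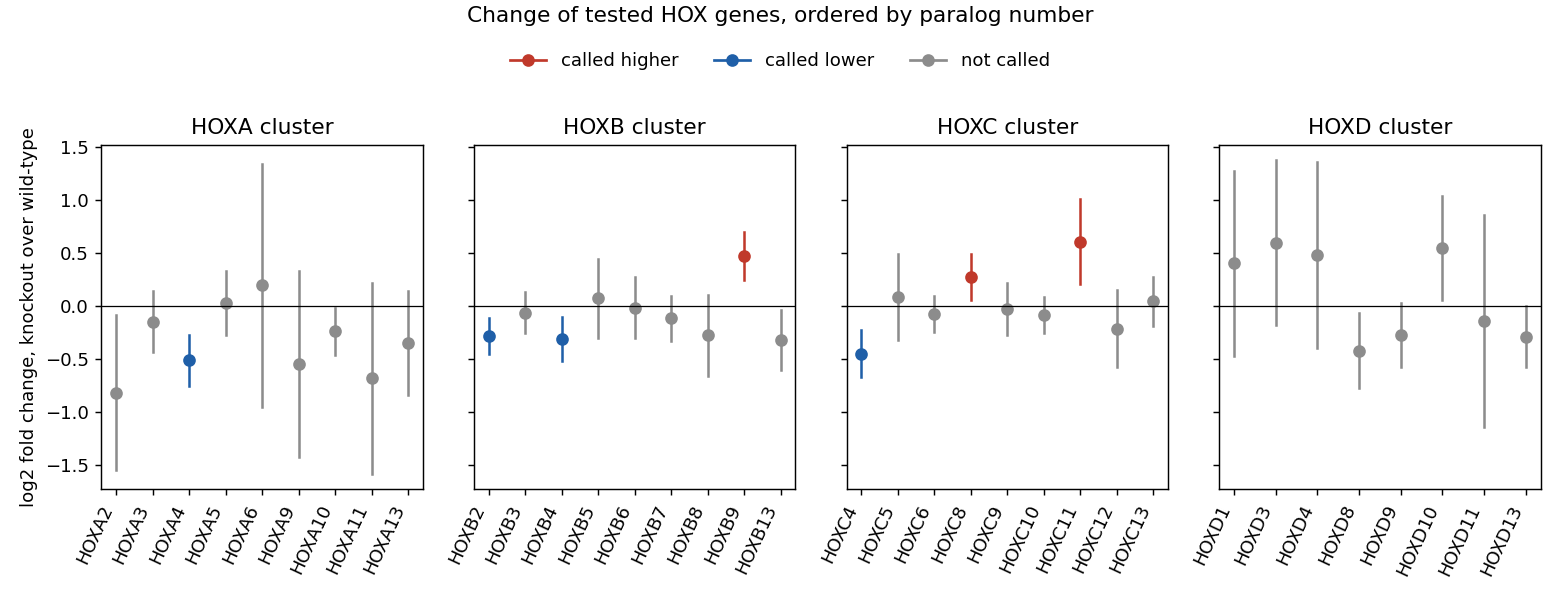
Log2 fold change of the tested HOX genes shown (knockout over wild-type, points) with 95% confidence intervals (lines), by cluster and ordered by paralog number; red was called higher, blue lower, grey not called. The 4 lower calls are HOXA4, HOXB2, HOXB4 and HOXC4, and the 3 higher calls, HOXB9, HOXC8 and HOXC11, lie at higher paralog numbers of the HOXB and HOXC clusters.

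Paralog group 4 held 3 of the 4 lower calls. These genes act in the neck and upper trunk, and HOXB4 is also known for expanding blood stem cells. HOXA4 measured 14.1, 14.7 and 15.5 CPM without and 10.1, 10.3 and 10.5 CPM with the knockout. Each knockout library lay below each wild-type library, by more than the spread within either genotype (log2 fold change -0.51, SE 0.12, adjusted p = 0.00127). HOXC4 stood at 18.5, 19.7 and 19.9 CPM across the wild type and 13.8, 13.3 and 15.5 CPM across the knockout. Its groups did not overlap (log2 fold change -0.45, SE 0.11, adjusted p = 0.00197). HOXB4 gave 18.4, 19.3 and 18.8 CPM (wild-type) and 14.7, 15.7 and 15.2 CPM (knockout). The groups again did not overlap (log2 fold change -0.31, SE 0.10, adjusted p = 0.0185), but the call was lost when wild-type replicate 2 or knockout replicate 1 was left out (adjusted p = 0.0586 and 0.0649) and with DESeq2 (adjusted p = 0.0578). HOXD4, the fourth member, was lower per kilobase (0.631 CPM per kilobase in wild-type). Its libraries were at 0.588, 0.921 and 0.64 CPM in wild-type against 0.797, 1.16 and 1.07 CPM in knockout libraries. Its groups overlapped, and with 10 to 20 counts in a library its interval was wide (log2 fold change 0.48, 95% interval -0.40 to 1.36, adjusted p = 0.391). The summed group was at 53.7 ± 1.9 CPM in wild-type against 40.7 ± 1.5 CPM in knockout (SD, n = 3 each), a ratio of 0.759. Of the 13 paralog groups, this one had the lowest ratio of knockout to wild-type.

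HOXA4 and HOXC4 overlap neighbours or share their counts with them, and the part of this in their values was not tested. HOXA4 shares 32.1% of its canonical transcript with exons of an unnamed gene on the same strand and 15.8% with exons of the antisense genes HOXA-AS2 and HOXA-AS3. HOXA-AS2 was at 1.02 ± 0.14 CPM in wild-type against 1.52 ± 0.15 CPM in knockout (adjusted p = 0.213) and HOXA-AS3 at 0.733 ± 0.263 and 0.524 ± 0.161 CPM (adjusted p = 0.456). HOXC4 had fractional counts in some libraries (314.45 in wild-type replicate 1, where HOXC6 had 561.55), as estimated counts can where reads are divided between genes. Summed over HOXC4, HOXC5 and HOXC6, which removes any such division among them, the level was 56.3, 56.6 and 57.3 CPM in wild-type against 48.8, 48.8 and 53.2 CPM in knockout libraries, which did not overlap. HOXC6 alone measured 33.0, 30.2 and 33.1 CPM without and 29.0, 30.3 and 32.2 CPM with the knockout. These overlapped and HOXC6 was not called (log2 fold change -0.08, 95% interval -0.25 to 0.10). HOXC5, which shares 67.3% of its canonical transcript with exons of unnamed same-strand genes, stood at 4.82, 6.67 and 4.30 CPM across the wild type and 6.06, 5.20 and 5.53 CPM across the knockout and was not called (log2 fold change 0.09, 95% interval -0.32 to 0.49).

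Start-site sequence was at hand for 20 of the 39 genes, among them 2 of the 7 called genes, HOXA4 and HOXC4. It is shown because both were lower in knockout cells. The 250 bases upstream of the start are given from RefSeq (GRCh38.p14), 5′ to 3′ on the gene's strand, with matches on either strand to CCAAT and to TAAT, the core that homeodomains favour, in capitals; the matches do not overlap each other. TATAAA was searched as well and is in neither.
HOXA4 (chr7:27130758-27131007, minus strand): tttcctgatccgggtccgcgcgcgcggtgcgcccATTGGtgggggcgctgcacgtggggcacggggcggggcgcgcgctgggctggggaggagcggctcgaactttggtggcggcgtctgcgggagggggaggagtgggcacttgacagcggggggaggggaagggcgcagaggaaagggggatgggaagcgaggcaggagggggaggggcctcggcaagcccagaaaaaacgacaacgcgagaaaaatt
HOXC4 (chr12:54016638-54016887, plus strand): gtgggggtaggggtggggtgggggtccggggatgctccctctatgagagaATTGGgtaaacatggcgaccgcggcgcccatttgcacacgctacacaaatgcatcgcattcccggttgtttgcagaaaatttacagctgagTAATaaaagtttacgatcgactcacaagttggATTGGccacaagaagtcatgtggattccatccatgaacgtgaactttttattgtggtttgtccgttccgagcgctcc
The HOXA4 window has 70.0% G and C, 26 CpG pairs, 1 CCAAT match and no TAAT. The HOXC4 window, which RefSeq also lists for HOXC5, has 50.8% G and C, 14 CpG pairs, 2 CCAAT matches and 1 TAAT. CCAAT is in 32.0% and TAAT in 47.4% of the 35116 windows of this length, and in 18 and 20 of the 27 HOX windows. The 27 HOX windows belong to only 20 genes. Several are alternative starts of HOXA3 or HOXA10, and the window of HOXC4 and HOXC5 is counted for each gene. They are therefore not independent, and the difference from all windows was not tested. TATAAA is in 10.7% of all windows and in 5 of the HOX windows. The median window has 58.0% G and C and 11 CpG pairs.

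HOXB2 was the fourth lower gene and the highest HOX gene per kilobase. It gave 50.9, 54.1 and 54.6 CPM (wild-type) and 48.6, 44.3 and 38.1 CPM (knockout). The groups did not overlap, with knockout replicate 1 close to the lowest wild-type library (log2 fold change -0.28, SE 0.08, adjusted p = 0.00851). Without knockout replicate 3, the lowest library, the log2 fold change was -0.197 and the call was lost (adjusted p = 0.073). HOXB-AS1, an antisense gene that overlaps 5.2% of the HOXB2 transcript, measured 2.23, 2.60 and 2.62 CPM without and 2.18, 1.62 and 1.41 CPM with the knockout and was not called (adjusted p = 0.162). HOXA2, the other member of group 2 and a regulator of the second branchial arch, had the lowest log2 fold change of all HOX genes. It stood at 2.70, 1.247 and 2.56 CPM across the wild type and 1.43, 1.04 and 1.18 CPM across the knockout. Wild-type replicate 2 lay within the knockout range, and HOXA2 was not called (log2 fold change -0.82, SE 0.35, adjusted p = 0.0683), although without that library it was (log2 fold change -1.106, adjusted p = 0.0185).

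The 3 genes that were higher lie at paralog numbers 8, 9 and 11. HOXB9, a thoracic patterning gene, gave 14.7, 15.4 and 17.4 CPM (wild-type) and 24.3, 20.6 and 21.0 CPM (knockout). All knockout libraries lay above all wild-type libraries (log2 fold change 0.47, SE 0.11, adjusted p = 0.00129), and no exon of another gene overlaps its canonical transcript. HOXC11, which acts in the hindlimb and lower trunk, measured 4.64, 4.23 and 7.44 CPM without and 8.98, 7.74 and 8.12 CPM with the knockout. The groups did not overlap, with wild-type replicate 3 just under the lowest knockout library (log2 fold change 0.61, SE 0.19, adjusted p = 0.0147). HOXC8, which patterns the thorax and brachial motor neurons, stood at 16.6, 19.2 and 20.2 CPM across the wild type and 23.2, 20.3 and 24.4 CPM across the knockout. The groups did not overlap, but wild-type replicate 3 and knockout replicate 2 were nearly level (log2 fold change 0.28, SE 0.11, adjusted p = 0.0407). HOXC11 lost its call when wild-type replicate 1 or 2 or knockout replicate 1 was left out (adjusted p = 0.0515, 0.0937 and 0.0668). Its log2 fold change ran from 0.45 to 0.90 over the 14 alternatives. HOXC8 was not called in 7 of 14 alternative analyses, with adjusted p up to 0.179. Without wild-type replicate 1, HOXB9 was the 1 higher gene, and it stayed called in all 14 alternatives, as did HOXA4 and HOXC4.

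**Figure D3:**
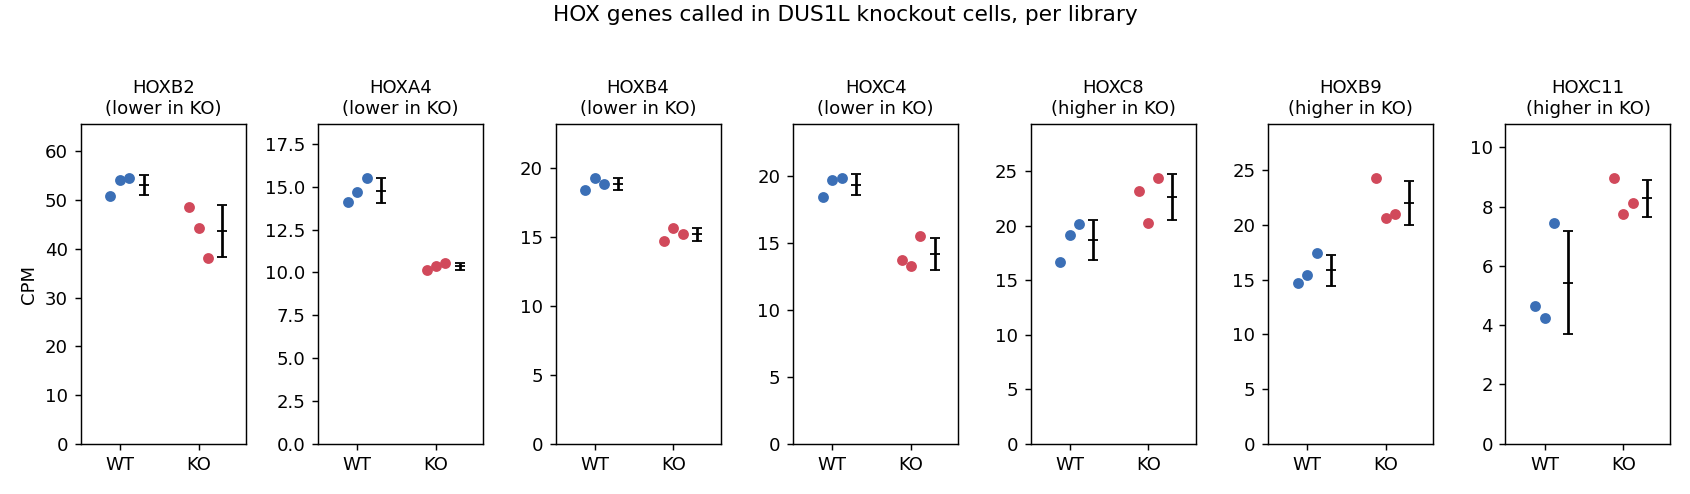
CPM per library (points) of the 7 called HOX genes in wild-type (WT, blue) and DUS1L knockout (KO, red) cells, with mean and SD (n = 3) beside the points; each vertical axis starts at 0 and has its own range. The knockout points lie below the wild-type points for HOXB2, HOXA4, HOXB4 and HOXC4 and above them for HOXC8, HOXB9 and HOXC11, with HOXB2, HOXC8 and HOXC11 coming close.

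Within the HOXB and HOXC clusters, genes moved in both directions. The ratio of 2 genes in a library does not depend on how libraries are scaled. The ratio of HOXB9 to HOXB4 counts was 0.799, 0.798 and 0.926 in wild-type and 1.65, 1.32 and 1.38 in knockout libraries. The ratio of HOXC8 to HOXC4 counts was 0.90, 0.973 and 1.01 in wild-type and 1.68, 1.53 and 1.57 in knockout libraries. Neither ratio overlapped between genotypes. The pairs were chosen after their values were seen, from genes called in opposite directions, so the separation is a description.

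The remaining genes of the head and neck end, paralog groups 1 to 3, were not called. HOXD1 measured 1.35, 0.921 and 0.465 CPM without and 1.06, 1.21 and 1.35 CPM with the knockout, with 60.1% of its canonical transcript shared with exons on the opposite strand, those of HAGLR among them. It did not separate the genotypes. HOXA3, which is needed for the thymus and parathyroid, stood at 8.58, 9.65 and 9.48 CPM across the wild type and 7.65, 8.90 and 8.52 CPM across the knockout. HOXB3 gave 25.3, 26.1 and 24.5 CPM (wild-type) and 21.8, 26.8 and 24.4 CPM (knockout), with overlap (log2 fold change -0.06, 95% interval -0.26 to 0.14). HOXD3 measured 1.12, 1.52 and 0.698 CPM without and 1.65, 2.08 and 1.35 CPM with the knockout (log2 fold change 0.60, 95% interval -0.18 to 1.38). The genotypes overlapped for all of the genes of group 3.

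Of the central genes outside group 4, those of groups 5 to 8, HOXC8 was the 1 call. HOXA5, a regulator of lung development, stood at 7.29, 7.59 and 7.33 CPM across the wild type and 7.33, 7.92 and 7.45 CPM across the knockout. HOXB5 gave 5.53, 5.53 and 4.77 CPM (wild-type) and 6.22, 5.37 and 5.08 CPM (knockout). Both genes overlapped between genotypes, with log2 fold changes of 0.03 (95% interval -0.27 to 0.33) and 0.08 (-0.30 to 0.45). HOXB6 measured 8.64, 9.38 and 10.8 CPM without and 8.66, 9.53 and 10.3 CPM with the knockout. HOXB7, which has been studied in melanoma as an activator of a fibroblast growth factor gene, stood at 22.5, 23.1 and 21.3 CPM across the wild type and 23.3, 20.2 and 18.2 CPM across the knockout. HOXB7 spread more widely in knockout and overlapped the wild-type range (log2 fold change -0.12, 95% interval -0.33 to 0.10). HOXB8 gave 5.00, 6.45 and 5.70 CPM (wild-type) and 4.36, 4.74 and 5.08 CPM (knockout). HOXD8 measured 8.47, 8.18 and 7.10 CPM without and 7.17, 5.55 and 4.96 CPM with the knockout. It lay just outside the call (log2 fold change -0.42, SE 0.17, adjusted p = 0.0521), with knockout replicate 1 just inside the wild-type range, and shares 24.5% of its transcript with the antisense gene HOXD-AS2, at 3.26 ± 0.37 CPM in wild-type against 3.76 ± 0.40 CPM in knockout (adjusted p = 0.482). HOXA6 had 4 to 18 counts in a library.

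Among the posterior genes, groups 9 to 13, HOXB9 and HOXC11 were called and 13 of the 15 tested genes were not. In group 9, HOXC9 stood at 13.8, 11.9 and 13.1 CPM across the wild type and 13.02, 12.1 and 12.9 CPM across the knockout, within the same range. HOXD9 gave 9.11, 9.05 and 8.55 CPM (wild-type) and 7.92, 7.74 and 6.49 CPM (knockout), which did not overlap, though its change of -0.27 (log2) did not pass the test (adjusted p = 0.145). HOXA9, a driver of some leukaemias, measured 0.706, 1.08 and 1.63 CPM without and 0.797, 0.693 and 0.846 CPM with the knockout. The genotypes overlapped. In group 10, HOXC10, a lumbar motor neuron gene, stood at 36.9, 32.3 and 33.7 CPM across the wild type and 32.0, 31.2 and 33.7 CPM across the knockout (log2 fold change -0.09, 95% interval -0.25 to 0.08). HOXA10, which patterns the uterus, gave 18.2, 19.2 and 19.02 CPM (wild-type) and 14.6, 15.3 and 17.9 CPM (knockout). HOXD10 measured 2.41, 2.49 and 2.501 CPM without and 4.09, 3.76 and 2.99 CPM with the knockout. The genotypes did not overlap for HOXA10, which was lower in value, or HOXD10, which was higher in value, but neither was called (log2 fold changes -0.24 and 0.55, adjusted p = 0.0822 and 0.0699). HOXA10 was called lower without knockout replicate 3 (adjusted p = 0.0366).

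In group 11, HOXA11, which acts in kidney and limb, stood at 1.47, 1.247 and 1.05 CPM across the wild type and 0.956, 1.04 and 0.338 CPM across the knockout. The genotypes were separated by a narrow gap, at 6 to 25 counts in a library, and it was not called (adjusted p = 0.221). HOXD11 had 8 to 23 counts. HOXC12 gave 7.41, 6.23 and 7.21 CPM (wild-type) and 5.69, 7.28 and 5.02 CPM (knockout), which overlapped. Group 13 is the tail and limb-tip end of the clusters. HOXB13, known for its role in the prostate, measured 11.6, 11.2 and 11.6 CPM without and 9.78, 7.63 and 10.2 CPM with the knockout, which did not overlap (log2 fold change -0.32, SE 0.14, adjusted p = 0.0635). HOXD13, a digit gene, stood at 11.6, 13.8 and 11.8 CPM across the wild type and 9.99, 11.96 and 8.57 CPM across the knockout. HOXA13, which acts in limb and urogenital tract, gave 4.53, 3.47 and 3.02 CPM (wild-type) and 2.98, 3.12 and 2.54 CPM (knockout). Both overlapped between genotypes and were not called (adjusted p = 0.103 and 0.25), although HOXD13 was called lower without knockout replicate 2 (adjusted p = 0.0353). HOXC13, a hair and nail gene, measured 15.7, 13.9 and 14.5 CPM without and 15.9, 14.2 and 15.5 CPM with the knockout (log2 fold change 0.05, 95% interval -0.18 to 0.28).

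Summed by cluster, HOXA stood at 68.0, 68.6 and 71.0 CPM across the wild type and 56.2, 58.4 and 61.7 CPM across the knockout, and HOXB at 162.6, 170.7 and 169.6 CPM against 161.8, 154.9 and 147.6 CPM. The genotypes did not overlap for either sum, although knockout replicate 1 came within 1 CPM of the lowest wild-type library for HOXB. Scaled by library size only, the HOXB sums did overlap, with knockout replicate 1 above wild-type replicate 1. HOXC gave 151.4, 144.3 and 153.5 CPM (wild-type) and 147.5, 141.6 and 152.9 CPM (knockout), and HOXD gave 35.2, 37.5 and 33.1 CPM against 33.4, 34.6 and 27.4 CPM. Both overlapped. By position, groups 1 to 3 summed to 101.9 ± 2.0 CPM in wild-type against 90.5 ± 4.2 CPM in knockout, groups 4 to 8 to 168.8 ± 4.0 and 154.2 ± 3.7 CPM, and groups 9 to 13 to 151.1 ± 4.4 and 147.97 ± 3.36 CPM (SD, n = 3 each). The first and second sums did not overlap between genotypes and the third did. Scaled by library size only, the difference (knockout minus wild-type) was -9.543 CPM in place of -14.6 CPM for groups 4 to 8, and turned direction for groups 9 to 13, at 1.495 CPM in place of -3.16 CPM. No test was made of these sums. Per gene, the median log2 fold change of tested genes was -0.294 for HOXA, -0.115 for HOXB, -0.025 for HOXC and 0.131 for HOXD. By position it was -0.062 for groups 1 to 3, -0.045 for groups 4 to 8 and -0.213 for groups 9 to 13. The posterior genes thus had the lowest median, although 2 of them were called higher. The plot by paralog group shows the gap between genotypes at groups 2, 4 and 13, where knockout is lower, and at group 9, where it is higher, with overlap at the other 9 groups. HOXB2 made up most of group 2. The rise of group 9 came from HOXB9, as the other 3 members had log2 fold changes below 0 and were not called (HOXA9 -0.54, HOXC9 -0.02, HOXD9 -0.27).

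**Figure D4:**
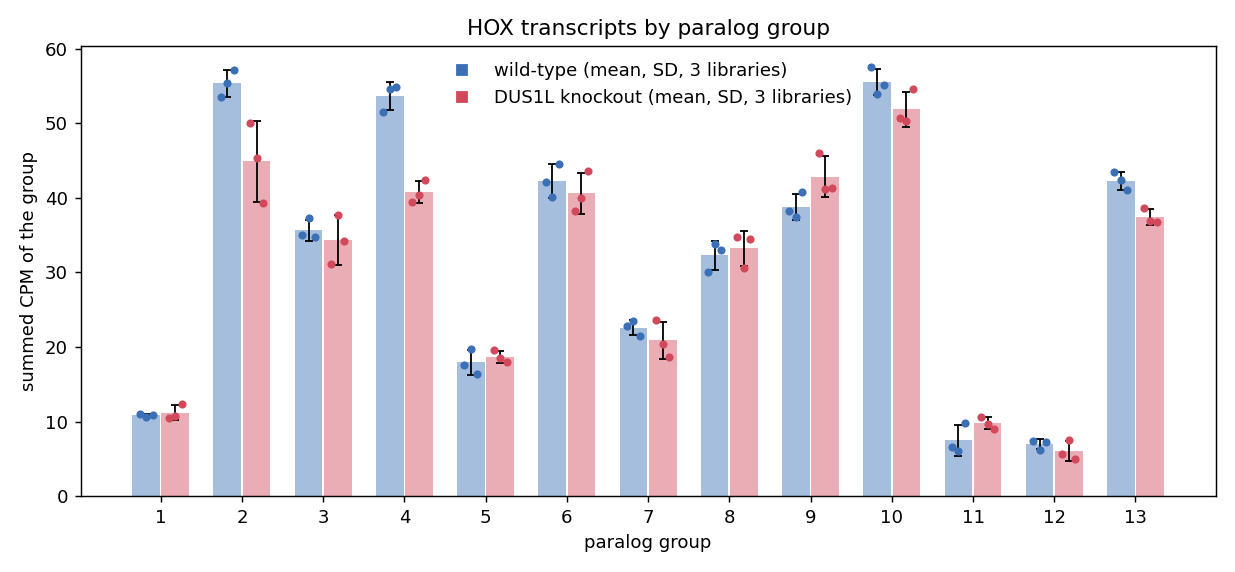
Summed CPM of the HOX genes of each paralog group in wild-type (blue) and DUS1L knockout (red) cells; bars are means, lines SD and points the 3 libraries of each genotype. Group 4 is at 53.7 CPM in wild-type against 40.7 CPM in knockout, and group 9 is at 38.8 CPM in wild-type against 42.9 CPM in knockout. Within group 9 only HOXB9 was higher.

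Most genes of the proteins that bind DNA together with HOX proteins were called. Of the 9 PBX, MEIS and PKNOX genes, all tested, 5 were lower (against 20.7% of all genes), 1 was higher (against 20.5%) and 3 were not called, with a median log2 fold change of -0.42. PKNOX2 measured 6.47, 10.4 and 7.68 CPM without and 3.40, 3.99 and 3.10 CPM with the knockout (log2 fold change -1.23, SE 0.20, adjusted p = 5.01e-05). PBX2 stood at 71.2, 70.7 and 65.2 CPM across the wild type and 49.6, 51.9 and 44.5 CPM across the knockout (log2 fold change -0.50, adjusted p = 1.13e-05). Neither gene overlapped between genotypes. PBX3 fell from 19.7 ± 2.0 to 13.4 ± 0.9 CPM (adjusted p = 0.000441) and MEIS2 from 31.2 ± 2.3 to 23.2 ± 2.1 CPM (adjusted p = 0.00104). PKNOX1 was the higher gene, and MEIS1, MEIS3 and PBX4 were not called.

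Noncoding genes of the clusters were mostly at low level. Of 18, 11 were tested, 2 were lower (against 20.7% of all genes) and none higher (against 20.5%), and 1 was lower with DESeq2 or with library size only. HAGLR, which lies in the HOXD cluster antisense to HOXD1 and HOXD3, gave 10.8, 13.1 and 10.5 CPM (wild-type) and 7.44, 7.74 and 8.29 CPM (knockout), without overlap (log2 fold change -0.55, SE 0.14, adjusted p = 0.0030). HOXC-AS2, antisense near the start of HOXC9, measured 1.23, 1.84 and 2.04 CPM without and 0.638, 0.693 and 1.18 CPM with the knockout (log2 fold change -1.02, SE 0.39, adjusted p = 0.0408), a call that was kept in 6 of 14 alternatives. HOTAIR was at 0.835 ± 0.12 and 0.715 ± 0.311 CPM and HOTAIRM1 at 3.91 ± 0.63 and 4.12 ± 0.89 CPM, and neither was called (adjusted p = 0.74 and 0.814). Of the antisense genes that overlap other named HOX transcripts, HOXA10-AS (23.9% of the HOXA10 transcript), HOXA11-AS (27.2% of HOXA11), HOTTIP (1.7% of HOXA13) and HOXB-AS3 (HOXB3, HOXB5 and HOXB6, up to 18.2%) were under 0.3 CPM in both genotypes. HOXC-AS3 and HOXC13-AS were at 0.604 ± 0.146 and 1.16 ± 0.10 CPM in wild-type, against 0.475 ± 0.257 and 1.598 ± 0.08 CPM in knockout, and were not called (adjusted p = 0.651 and 0.301). The hairpin genes of the 6 cluster microRNAs looked up had 0 counts in all libraries, which in libraries of long RNA says nothing of the mature microRNAs.

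Genes next to the clusters were tested for 14 of 18 members, of which 7 were lower, 1 higher and 6 not called (median log2 fold change -0.24), beside 20.7% lower and 20.5% higher among all genes. HNRNPA3, which lies on the HOXD chromosome and encodes an RNA-binding protein, fell from 342.6 ± 8.2 to 259.4 ± 15.3 CPM (adjusted p = 4.15e-06), and ATP5MC2, a subunit of ATP synthase near HOXC, fell by 0.44 (log2, adjusted p = 4.27e-05). CBX5, a heterochromatin protein gene near HOXC, fell by 0.34 (adjusted p = 0.000884), and SNX11, near HOXB, was the higher gene (log2 fold change 0.42, adjusted p = 0.000416). The homeobox neighbours EVX1 and EVX2 had at most 3 counts in a library.

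Of 32 Polycomb genes, which keep the clusters silent, 7 were higher, 9 lower and 16 not called, with a median log2 fold change of -0.06. These counts lie near the shares among all genes, 20.5% higher and 20.7% lower. PHF19, a partner of the complex that methylates lysine 27 of histone H3, fell from 109.4 ± 8.5 to 60.8 ± 2.3 CPM (adjusted p = 4.27e-09), and PHC2 fell by 0.39 (log2; adjusted p = 3.31e-06). RYBP rose from 55.3 ± 2.9 to 83.4 ± 1.4 CPM (adjusted p = 3.06e-07), and PCGF5 rose by 0.55 (adjusted p = 2.04e-05). A further list held Trithorax genes and H3K27 demethylases, with DOT1L, MLLT1, MLLT3, MLLT10, AFF1, AFF4 and CTCF added. Of its 23 tested genes, 8 were higher, 7 lower and 8 not called, beside the same 20.5% and 20.7% of all genes. The lower genes were DPY30, MEN1, PSIP1, MLLT1, MLLT3, MLLT10 and CTCF. The lower calls numbered 3 with library size only and 4 when knockout replicate 1 or 3 was left out. KDM6B, which removes that methylation, went up from 89.3 ± 10.8 to 217.2 ± 19.2 CPM, by 1.28 ± 0.09 (SE) on the log2 scale, with adjusted p = 1.2e-07. PSIP1, a chromatin reader of the KMT2A complex, fell from 229.4 ± 10.4 to 148.9 ± 4.5 CPM (adjusted p = 1.58e-08), and ASH1L and AFF4 rose by 0.46 each (adjusted p = 2.03e-06 and 3.9e-06).

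Of 11 tested genes of signals that act on HOX clusters in the embryo, 2 were higher and 4 lower, against 20.5% and 20.7% of all genes. GDF11, a ligand that sets posterior HOX boundaries, fell from 75.5 ± 2.4 to 47.3 ± 6.2 CPM (adjusted p = 1.28e-06). RARG, a retinoic acid receptor, fell by 0.46 (log2; adjusted p = 1.1e-05), and GMNN, which encodes geminin, fell by 0.49 (adjusted p = 1.36e-05). ALDH1A3, an enzyme that makes retinoic acid, rose from 485.6 ± 51.1 to 800.3 ± 76.0 CPM (adjusted p = 9.63e-05). Homeobox genes outside the clusters, chosen from several families, gave 10 higher and 6 lower of 44 tested (median log2 fold change 0.07), where 20.5% and 20.7% of all genes were called. The higher calls numbered 6 with DESeq2 or without knockout replicate 1. MEOX2 and PRRX1 fell by 1.82 and 2.20 (log2; adjusted p = 1.93e-13 and 1.51e-11), TSHZ1 fell by 0.85 (adjusted p = 2.31e-07), and SIX4 rose by 0.91 (adjusted p = 9.89e-08). The lowest value among tested HOX genes was -0.82 (HOXA2, not called), and the lowest among called ones -0.51 (HOXA4).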

How the data were processed

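Total RNA of 6 A375 cultures was sequenced in paired ends, per the labels' protocols. The authors deposited estimated counts per gene, which need not be whole, with 1 column per library. They name GRCh38 (hg38) as genome build, per the submitters' processing notes. The aligner, counting tool, strand setting and annotation release are not given in the sources used here. Identifiers were matched without version to GENCODE release 44 (99.1% of 63086 genes, all 39 HOX genes), which gave symbols, coordinates and transcript lengths. Counts were rounded, filtered with filterByExpr (minimum count 10) and scaled by TMM. The test between genotypes was that of edgeR 4.0.16 under R 4.3.3 (robust quasi-likelihood fit, group as the only term, two-sided), with Benjamini-Hochberg adjustment over all 16046 genes tested and a threshold of 0.05. Standard errors come from the fold change and its F statistic. A few genes and short sequences are not reported here, though the counts and sums include those genes. The HOX genes and the lists were chosen with earlier results of these data known. Named genes are the HOX genes that were called or had a mean of 1 CPM or more, and up to 4 called members of each list by smallest p. The procedure was also run on simulated counts in which all genes shared the same spread. That run cannot speak to genes of differing spread, to a library that stands apart or to the passage through a clone. The alternatives were DESeq2 1.42.0, limma-voom 3.58.1, other scalings and filters, a replicate block, each library left out and, chosen after seeing the data, a correction for GC content and length. Intervals cover counting error and the spread between libraries only.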

Additional observations from a re-analysis of the deposited data

How the results depend on the processing

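No HOX gene that was called changed direction in any of the 14 alternative analyses. HOXA4, HOXB9 and HOXC4 were called in all 14, HOXB2 in 13, HOXB4 and HOXC11 in 11 and HOXC8 in 7, while HOXD8 was gained in 5 and HOXA2, HOXA10 and HOXD13 in 1 each. Leaving out a library gave 1 to 3 higher and 4 to 5 lower HOX genes; without wild-type replicate 1, wild-type replicate 2 or knockout replicate 1, 1 gene (HOXB9) was higher. Deviations of libraries with the same replicate number correlated at -0.041, -0.017 and 0.019, so the numbers were not taken as pairs; with replicate number as a block, 3 HOX genes were higher and 5 lower, and no HOX gene passed the test against 1.5-fold. Among the lists, the 2 lower noncoding genes became 1 with library size only, without the low-count filter, with DESeq2, with the correction for GC content and length, and in a range of 1 to 2 with a library left out. The 7 lower genes of the list with Trithorax genes became 3 with library size only and 4 to 7 with a library left out. The 10 higher homeobox genes became 6 with DESeq2 and 6 to 10 with a library left out. The cause was not tested. With library size only, the summed difference (knockout minus wild-type) was -9.543 CPM for groups 4 to 8, against -14.6, and 1.495 CPM for groups 9 to 13, against -3.16. Genes under 1 CPM had intervals of about 1 log2 unit to either side, so changes as small as those called would not have been detectable in them.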
